A study of Mus musculus with 12 samples.

Results

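Matrix metalloproteases are zinc-dependent endopeptidases that cut collagens, laminins, fibronectin and many cell surface proteins. Most are secreted as inactive proenzymes and become active once a propeptide is removed by another protease. They are held in check by the tissue inhibitors of metalloproteases (TIMPs). In the mammary gland they are known for their part in ductal branching and in the tissue remodelling of involution, and their transcripts come from the epithelium as well as from the stroma and from leukocytes. The 10 genes described here are Mmp14, Mmp15, Mmp2, Mmp9, Mmp3, Mmp10, Mmp11, Mmp12, Mmp13 and Mmp19, chosen by name from the 57180 genes of the table. Of these, 8 reached the level required for testing, and Mmp9 and Mmp19 did not. Mmp2, Mmp11, Mmp12 and Mmp14 were at or above 1 TPM in all 12 libraries, Mmp3 in 10, Mmp15 in 9 and Mmp10 in 8. Mmp13 was so in 6, of which 5 were control libraries, so a gene such as Mmp13 entered the test through the groups in which it is high.

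Stranded mRNA sequencing was used to measure RNA in aggregates of HC11 cells, an established mouse mammary epithelial line, taken at 0 h and 36 h of an in vitro migration assay. All cells had been sorted by flow cytometry and kept overnight in medium with serum, epidermal growth factor and insulin before the assay. The 4 groups were Snail1 knockdown at 0 h (libraries 1, 2 and 3), control at 0 h (genotype labelled WT, titles beginning scr, libraries 1, 2 and 3), Snail1 knockdown at 36 h (libraries 1, 2 and 3) and control at 36 h (libraries 1, 3 and 4). The labels do not give the knockdown reagent, do not say whether the cells were a pool or 1 clone, and do not explain the word "mix" in the title of control 36 h library 4. If that library is a pool of others, n = 3 overstates the replication of control at 36 h. Whether libraries of 1 group are separate cultures is not stated in the labels, and the p-values then reflect only the spread between these libraries, which may be technical. The question behind the series is what Snail1, a transcriptional repressor, does in collective migration.

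Levels are TPM (transcript abundance per library total), the authors' values, which take gene length into account and can be compared between genes. A change is a log2 fold change on the log2(TPM + 1) scale with its standard error (SE), and it understates the change of genes with low levels. The test was limma, run on the 14426 genes that reached 1 TPM in 3 or more of the 12 libraries. Tests were two-sided with Benjamini-Hochberg adjustment over all 14426 genes, and calls were made at an adjusted p under 0.05. The exact permutation test of 3 libraries against 3 cannot go below p = 0.1, so it is not given gene by gene. The files hold no read counts, so sequencing depth is unknown and no counting error can be given.

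The targeted gene Snai1 stood at 33.4% of control at 0 h (log2 fold change -0.80, adjusted p = 0.0348) and at 13.0% at 36 h (-1.55, adjusted p = 0.0105). These percentages rest on low levels. Snai1 averaged 0.617 ± 0.158 TPM in knockdown and 1.85 ± 0.601 TPM in control at 0 h. At 36 h it averaged 0.407 ± 0.192 TPM in knockdown and 3.13 ± 0.688 TPM in control. The highest knockdown library stood at 0.79 TPM at 0 h and 0.58 TPM at 36 h. The 0 h call of Snai1 was lost in 11 of 23 alternatives, among them median-of-ratios scaling (-0.51, adjusted p = 0.191) and a block for the replicate number (adjusted p = 0.0724). Removing any 1 of the 3 control 0 h libraries ended it too (adjusted p of 0.059, 0.122 and 0.0828 without libraries 1, 2 and 3), as did removing the first knockdown library of 0 h (0.0576) or the second of 36 h (0.0525). Its 36 h call was lost in 5 of 23, namely with the block (-1.50, adjusted p = 0.169), with the block and scaling (0.105), and on removing from the 36 h groups knockdown library 2 (0.0576), knockdown library 3 (0.0615) or control library 4 (0.0695). Knockdown 0 h library 2 stood apart from the rest. Its share of TPM from mitochondrially encoded genes was 13.99%, against 1.454% to 6.154% elsewhere, and median-of-ratios scaling gave it a factor of 0.507, against 0.902 to 1.22 elsewhere. Library 3 of the same group had 27715 genes above 0, against 20932 to 23427 elsewhere. The median log2 fold change of all tested genes between knockdown and control at 0 h was -0.41, and 0.02 after median-of-ratios scaling, so the changes at 0 h are also given with that scaling and without these libraries where this bears on them.

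The epithelial markers Krt14, Krt5, Epcam, Cdh1, Krt8 and Krt18 were present in every library, the lowest value being 8.43 TPM for Krt18. Their sum was 3325 to 10280 TPM in knockdown and 10060 to 10280 TPM in control at 0 h. At 36 h it was 19470 to 25460 TPM in knockdown and 15900 to 18760 TPM in control. From 0 h to 36 h Krt5 rose in control (1.15) and in the knockdown (1.68), and Krt14 in the knockdown (1.88). With 1 library left out these calls held in 4, 12 and 3 of 12 fits. Of all tested genes, 0.36% were called in control and 1.12% in the knockdown. The means of Epcam and Krt18 were lower at 36 h. Among markers of other cells that make these proteases, 8 of 11 macrophage markers were under 1 TPM in every library, with C1qa and Marco at 0 throughout and Adgre1 between 0 and 0.08 TPM. The summed level of the macrophage list was 6.81 to 13.2 TPM in knockdown and 10.72 to 16.23 TPM in control at 0 h, and 3.83 to 4.28 TPM in knockdown and 3.79 to 4.47 TPM in control at 36 h. Cd68, a lysosomal protein, made up most of it. Of 9 fibroblast markers, 3 were under 1 TPM in every library, and their sum was 236.8 to 903.9 TPM in knockdown and 876.7 to 956.7 TPM in control at 0 h, and 793 to 877.6 TPM in knockdown and 1008 to 1526 TPM in control at 36 h. Nearly all of that sum was Postn, periostin, which averaged 553 TPM in knockdown and 894 TPM in control at 0 h, and 822 TPM in knockdown and 1290 TPM in control at 36 h. Dcn, decorin, averaged 1.6 TPM in both groups at 0 h, and 0.833 TPM in knockdown and 0.357 TPM in control at 36 h. Col1a1, Pdgfra and Pdgfrb averaged less in knockdown at both times, and Thy1 and Lum, under 1 TPM, averaged more. Of 5 fibroblast markers tested none rose, and 1 fell at each time, Col1a1 at 0 h (-1.01) and Col3a1 at 36 h (-0.99). Of all tested genes, 14.6% fell at 0 h and 1.64% at 36 h. Each call held in 3 of 12 fits with 1 library left out, and neither held with median-of-ratios scaling. Of 7 neutrophil markers, 5 were under 1 TPM in every library and Elane was at 0. The others were Cxcr2, at 0.42 to 2.56 TPM, and S100a8, at 3.05 to 15.63 TPM. S100a8 averaged 10.9 TPM in knockdown and 11.9 TPM in control at 0 h, and 4.7 and 5.58 TPM at 36 h. Of 4 endothelial markers, 3 were under 1 TPM. Pecam1, the other, averaged 2.06 TPM in knockdown and 3.42 TPM in control at 0 h, and 5.68 and 5.45 TPM at 36 h. The part of these markers in the protease levels was not tested, and in bulk RNA fewer cells of a type and less RNA per cell cannot be told apart.

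Genes Mmp13, Mmp12, Mmp3 and Mmp10 lie in this order on mouse chromosome 9, with Mmp1b between Mmp12 and Mmp3 and Mmp1a between Mmp3 and Mmp10. Collagenase and stromelysin promoters of this cluster are textbook targets of AP-1, the Fos and Jun dimer. In the knockdown at 0 h these 4 genes fell, as did Mmp14 and Mmp15, which lie on other chromosomes and are not shown. The sequences below are those of the 4 genes on chromosome 9. They are the 150 bases before the RefSeq gene start, from RefSeq for build GRCm38.p6, 5′ to 3′ on the plus strand, with TGANTCA (the AP-1 motif, searched on both strands) and TATAAA (the TATA box, searched on the gene strand) in capitals. The authors' build is GRCm39, and these coordinates do not apply to it. The bases after the start matched a transcript of the gene in Mmp13, Mmp12 and Mmp3 and did not in Mmp10.
Mmp13, chr9:7272364-7272513: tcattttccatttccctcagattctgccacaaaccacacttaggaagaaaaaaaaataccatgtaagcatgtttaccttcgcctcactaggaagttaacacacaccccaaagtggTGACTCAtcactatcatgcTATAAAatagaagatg
Mmp12 (second RefSeq start), chr9:7347224-7347373: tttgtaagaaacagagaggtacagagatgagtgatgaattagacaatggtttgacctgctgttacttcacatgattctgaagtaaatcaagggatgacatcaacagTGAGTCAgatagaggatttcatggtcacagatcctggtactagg
Mmp3, chr9:7445672-7445821: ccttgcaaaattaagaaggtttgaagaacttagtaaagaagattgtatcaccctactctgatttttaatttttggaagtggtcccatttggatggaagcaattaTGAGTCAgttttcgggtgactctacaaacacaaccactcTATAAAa
Mmp10, chr9:7502192-7502341: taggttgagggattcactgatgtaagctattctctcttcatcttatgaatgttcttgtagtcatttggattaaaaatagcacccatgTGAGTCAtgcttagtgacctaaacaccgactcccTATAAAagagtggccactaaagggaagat

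RefSeq windows of 300 bases, which reach from before the start to 50 bases after it, were found for 7 of the 10 genes, in 8 windows, and Mmp2, Mmp9 and Mmp19 had no entry in the table used. The AP-1 motif stood in 4 of the 8 windows, 1 for each of the 4 genes of the chromosome 9 cluster. Counted from the start (the base before it is -1), its first base was at -35 in Mmp13, -44 in Mmp12, -46 in Mmp3 and -63 in Mmp10. Of all 32817 windows in the table, 7.81% held the AP-1 motif. The 4 genes are neighbours of 1 family, so their matches are not independent. No AP-1 motif stood in the windows of Mmp11, Mmp14 and Mmp15 or in that of the first Mmp12 start. The TATA box stood in the same 4 windows, in Mmp12 after the start, against 8.32% of all windows. The E-box CAGGTG, the motif Snail-type repressors are known to bind, was searched on both strands and stood in the windows of Mmp10 and Mmp15, against 20.2% of all windows. No match overlapped another motif. A match of letters does not show a bound site, and a window without one says nothing of the factor.

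At 0 h, 6 of the 8 tested metalloproteases fell in the knockdown and none rose. The genes that fell were Mmp3, Mmp12, Mmp14, Mmp13, Mmp10 and Mmp15. Of all genes tested, 14.6% fell in this comparison and 3.1% rose. The median log2 fold change of the 8 genes was -1.34, and that of all tested genes was -0.41. With median-of-ratios scaling the calls of Mmp10 (-1.13, adjusted p = 0.0519) and Mmp15 (-0.71, adjusted p = 0.147) were lost. Those of Mmp3, Mmp12, Mmp14 and Mmp13 were kept. For 7 of the 8, Mmp2 being the exception, the highest knockdown library was below the lowest control library, which held for 30.7% of all tested genes.

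**Figure D1:**
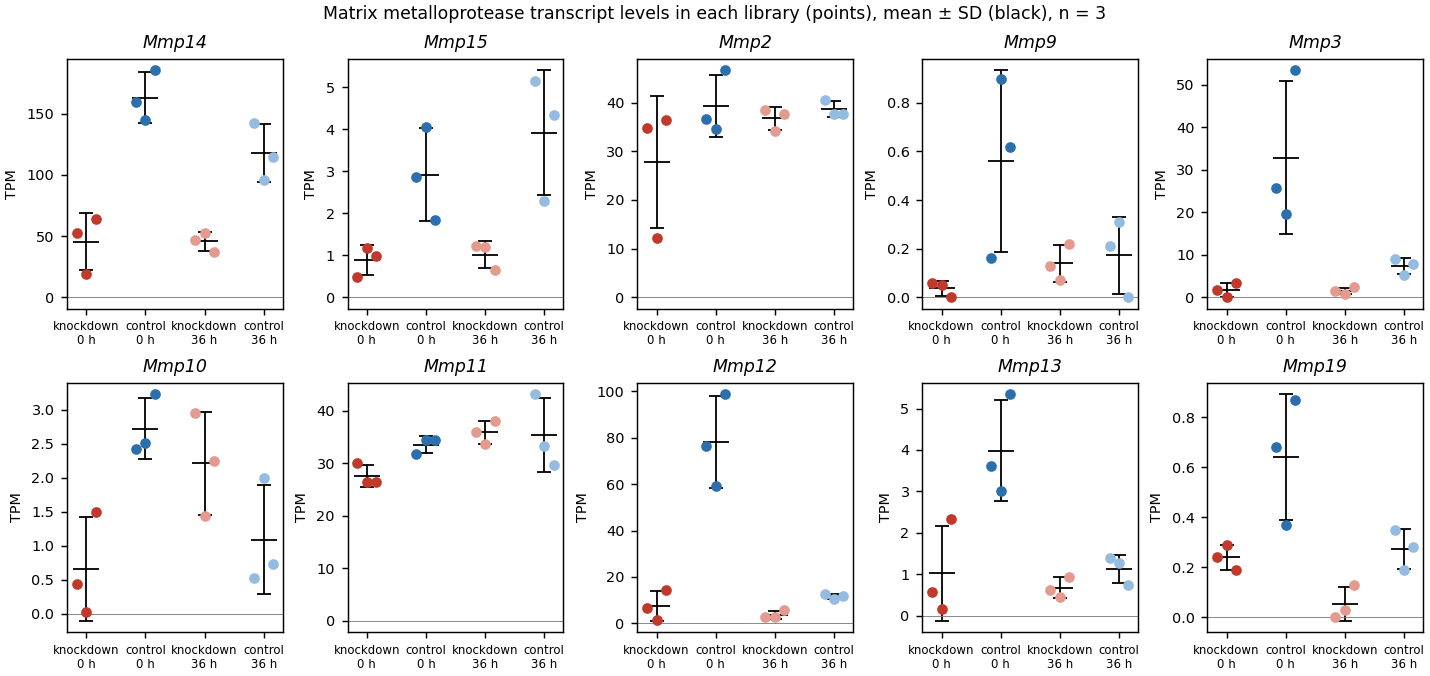
Transcript level in TPM (linear axis, a separate scale for each gene) of the 10 matrix metalloproteases in each library (points), with the mean and SD of the 3 libraries in black, for knockdown and control at 0 h and at 36 h. At 0 h the knockdown points lie below the control points for every gene but Mmp2, and the control points of Mmp3, Mmp12 and Mmp13 are lower at 36 h than at 0 h.

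Mmp14 (ENSMUSG00000000957), the membrane-anchored collagenase MT1-MMP that also activates the Mmp2 proenzyme, had the highest mean of the family in all 4 groups. It stood at 52.5, 19.37 and 63.98 TPM in knockdown libraries 1, 2 and 3 at 0 h, against 159.19, 144.77 and 185.34 TPM in control libraries 1, 2 and 3. The groups did not overlap, and knockdown library 2 was the lowest of all. The knockdown averaged 45.3 ± 23.2 TPM and control 163 ± 20.6 TPM (SD, n = 3 each), and the difference on the log2 scale was -1.98 (SE 0.371, limma adjusted p = 0.00733). The change was -1.47 both with median-of-ratios scaling (adjusted p = 0.000902) and without knockdown library 2 (adjusted p = 0.000771). It did not pass in the limma fit of only the groups compared (adjusted p = 0.0994).

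At 36 h Mmp14 had 46.67, 52.81 and 37.19 TPM in knockdown libraries 1, 2 and 3, against 142.75, 96.2 and 114.37 TPM in control libraries 1, 3 and 4. The groups again did not overlap. Means were 45.6 ± 7.87 TPM in knockdown and 118 ± 23.5 TPM in control, and the log2 fold change of -1.35 (SE 0.371) did not pass (adjusted p = 0.0855). It passed at the same size without knockdown 0 h library 2 (adjusted p = 0.000864) or library 3 (adjusted p = 0.0468), which do not enter the 36 h means but do enter the shared estimate of spread. With median-of-ratios scaling it was -1.24 (adjusted p = 0.00563).

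Mmp15 (ENSMUSG00000031790), a second membrane-type protease (MT2-MMP), was low throughout. At 0 h it stood at 0.48, 1.18 and 0.99 TPM in knockdown libraries 1, 2 and 3, against 2.87, 4.06 and 1.83 TPM in control libraries 1, 2 and 3. At 36 h it stood at 1.21, 1.19 and 0.64 TPM in knockdown libraries 1, 2 and 3, against 5.15, 2.28 and 4.33 TPM in control libraries 1, 3 and 4. Knockdown and control did not overlap at either time.

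The log2 fold change of Mmp15 was -1.04 at 0 h (SE 0.303, adjusted p = 0.0384), with means of 0.883 ± 0.362 TPM in knockdown and 2.92 ± 1.12 TPM in control. At 36 h it was -1.25 (SE 0.303), which did not pass (adjusted p = 0.0556), with means of 1.01 ± 0.323 TPM in the knockdown and 3.92 ± 1.48 TPM in the control libraries. Its adjusted p at 36 h was 0.0157 without knockdown 0 h library 2 and 0.0427 without control 36 h library 3, where the change was -1.52. The 0 h call did not hold with median-of-ratios scaling (-0.71, adjusted p = 0.147), or in 11 of 23 alternatives in all, and without knockdown 0 h library 2 it was -1.15 (adjusted p = 0.0305). Leaving out 1 library ended it for control 0 h libraries 1 (adjusted p = 0.109) and 2 (0.131), knockdown 0 h library 1 (0.0821), control 36 h library 4 (0.0563) and knockdown 36 h libraries 1 (0.0563) and 2 (0.0553).

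The gelatinases Mmp2 and Mmp9 are known for cutting type IV collagen and denatured collagen. Mmp2 (ENSMUSG00000031740) was the one tested member whose knockdown and control libraries overlapped at 0 h. It stood at 34.9, 12.26 and 36.49 TPM in knockdown libraries 1, 2 and 3, against 36.69, 34.6 and 46.64 TPM in control libraries 1, 2 and 3. Knockdown library 2 alone lay far below the rest. The log2 fold change was -0.61 (SE 0.340, 95% interval -1.36 to 0.13) and did not pass (adjusted p = 0.203). It was -0.12 without knockdown library 2 (adjusted p = 0.534) and after median-of-ratios scaling (adjusted p = 0.673), and 0.07 with both (adjusted p = 0.751).

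At 36 h Mmp2 averaged 36.8 ± 2.36 TPM in knockdown and 38.7 ± 1.67 TPM in control, a log2 fold change of -0.07 with a 95% interval of -0.82 to 0.67, and scaling turned its sign (0.03). Mmp9 (ENSMUSG00000017737) never reached 1 TPM and was not tested. It stood at 0.06, 0.05 and 0 TPM in knockdown and 0.16, 0.9 and 0.62 TPM in control at 0 h, and at 0.13, 0.07 and 0.22 TPM in knockdown and 0.21, 0.31 and 0 TPM in control at 36 h. The groups did not overlap at 0 h and overlapped at 36 h.

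The stromelysins Mmp3 and Mmp10 cut proteoglycans, laminin and fibronectin and can activate other proenzymes of the family. Mmp3 (ENSMUSG00000043613) had the largest change of the family at 0 h. It stood at 1.56, 0 and 3.31 TPM in knockdown libraries 1, 2 and 3, against 25.71, 19.51 and 53.43 TPM in control libraries 1, 2 and 3. The highest knockdown library was below the lowest control library, and knockdown library 2 was listed at 0. The knockdown mean was 4.94% of control, and the log2 fold change was -3.80 (SE 0.509, adjusted p = 0.00183). Without knockdown library 2 it was -3.22 (adjusted p = 0.000771), and -3.63 after median-of-ratios scaling (adjusted p = 0.00122). It did not pass in the limma fit of only the groups compared (adjusted p = 0.0646).

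At 36 h Mmp3 had 1.34, 0.8 and 2.28 TPM in knockdown libraries 1, 2 and 3, against 8.93, 5.2 and 7.69 TPM in control libraries 1, 3 and 4. These groups did not overlap either. The knockdown mean was 20.3% of control, and the log2 fold change of -1.76 (SE 0.509) did not pass (adjusted p = 0.0999). Without knockdown 0 h library 2 the adjusted p was 0.0109.

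Mmp10 (ENSMUSG00000047562), the second stromelysin, had a log2 fold change below 0 at 0 h and above 0 at 36 h. At 0 h it stood at 0.43, 0.03 and 1.5 TPM in knockdown libraries 1, 2 and 3, against 2.42, 2.51 and 3.23 TPM in control libraries 1, 2 and 3. At 36 h it stood at 2.95, 1.43 and 2.25 TPM in knockdown libraries 1, 2 and 3, against 0.52, 2.0 and 0.73 TPM in control libraries 1, 3 and 4. The groups did not overlap at 0 h, and at 36 h control library 3 lay within the knockdown range.

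The change of Mmp10 at 0 h was -1.26 (SE 0.356, adjusted p = 0.0341), and that at 36 h was 0.66 (SE 0.356), which did not pass (adjusted p = 0.410). The 0 h call was lost in 12 of 23 alternatives, among them median-of-ratios scaling (-1.13, adjusted p = 0.0519) and leaving out knockdown 0 h library 2 (-0.97, adjusted p = 0.0713). The other libraries whose removal ended it were knockdown 0 h library 1 (adjusted p = 0.062), control 0 h libraries 1 (0.0878), 2 (0.0831) and 3 (0.107), knockdown 36 h library 3 (0.0502) and control 36 h library 4 (0.0503). Mmp3 and Mmp10 share sequence. Of the 1752 stretches of 50 bases in Mmp3 transcripts, 147 also occur in Mmp10 or Gm15244, and of 1673 in Mmp10 transcripts, 140 occur in Mmp3. How reads from these stretches were assigned is not given in the sources used here, so the low values of Mmp10 in libraries with much more Mmp3 are uncertain.

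Mmp11 (ENSMUSG00000000901), stromelysin 3, differs from most of the family in being activated inside the cell by furin, and it varied little over the 12 libraries (root mean square deviation from its mean 0.192 on the log2 scale). At 0 h it stood at 30.01, 26.44 and 26.42 TPM in knockdown libraries 1, 2 and 3, against 31.7, 34.42 and 34.53 TPM in control libraries 1, 2 and 3. The groups did not overlap, but the log2 fold change of -0.27 (SE 0.188) did not pass (adjusted p = 0.294) and turned to 0.23 with median-of-ratios scaling and 0.28 with quantile normalization. At 36 h Mmp11 averaged 35.9 ± 2.22 TPM in knockdown and 35.4 ± 7.04 TPM in control (log2 fold change 0.04, adjusted p = 0.966).

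Mmp12 (ENSMUSG00000049723), an elastase best known from macrophages, was the second most abundant member in control at 0 h. It stood at 6.66, 1.61 and 14.54 TPM in knockdown libraries 1, 2 and 3, against 76.3, 59.35 and 98.91 TPM in control libraries 1, 2 and 3. The groups lay far apart, and the knockdown libraries themselves differed widely. The knockdown mean was 9.72% of control, and the log2 fold change was -3.52 (SE 0.518, adjusted p = 0.00263). It was -2.83 without knockdown library 2 (adjusted p = 0.000512) and -3.10 after median-of-ratios scaling (adjusted p = 0.000925). It did not pass in the limma fit of only the groups compared (adjusted p = 0.0694). Of the macrophage markers, Cd68 averaged 8.16 TPM in knockdown and 12.9 TPM in control at 0 h, and Adgre1 averaged 0.0267 TPM in knockdown and 0 TPM in control. The means of Lyz2 (1.51 TPM in knockdown and 0.97 TPM in control) and Csf1r (0.537 TPM in knockdown and 0.04 TPM in control) were higher in knockdown.

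At 36 h Mmp12 had 2.65, 2.9 and 5.75 TPM in knockdown libraries 1, 2 and 3, against 12.7, 10.44 and 11.85 TPM in control libraries 1, 3 and 4. The groups did not overlap, with the knockdown mean at 32.3% of control. The log2 fold change of -1.46 (SE 0.518) did not pass (adjusted p = 0.177), and without knockdown 0 h library 2 the adjusted p was 0.00967.

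Mmp13 (ENSMUSG00000050578), collagenase 3, the main interstitial collagenase of rodents, stood at 0.57, 0.17 and 2.33 TPM in knockdown libraries 1, 2 and 3 at 0 h, against 3.6, 3.0 and 5.35 TPM in control libraries 1, 2 and 3. The groups did not overlap, with knockdown library 3 nearest to control. The log2 fold change was -1.42 (SE 0.354, adjusted p = 0.0222), -1.10 without knockdown library 2 (adjusted p = 0.0386) and -1.22 after median-of-ratios scaling (adjusted p = 0.0274). Leaving out control 0 h library 1 (adjusted p = 0.066) or control 0 h library 3 (adjusted p = 0.0833) ended the call. It was also lost without knockdown library 2 and with scaling together (-0.98, adjusted p = 0.0514), with no filter (adjusted p = 0.08) and with only the groups compared (adjusted p = 0.144), which makes 5 of 23 alternatives.

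At 36 h Mmp13 averaged 0.673 ± 0.248 TPM in knockdown and 1.12 ± 0.346 TPM in control, the groups overlapped, and the change of -0.34 did not pass (adjusted p = 0.741). Mmp19 (ENSMUSG00000025355), which cuts basement membrane proteins, was under 1 TPM in every library and was not tested. It stood at 0.24, 0.29 and 0.19 TPM in knockdown and 0.68, 0.37 and 0.87 TPM in control at 0 h, and at 0, 0.03 and 0.13 TPM in knockdown and 0.35, 0.19 and 0.28 TPM in control at 36 h. The knockdown values lay below the control values at both times.

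At 36 h none of the 8 tested metalloproteases passed in limma, while 2.53% of all tested genes did (1.64% lower and 0.894% higher). At an unadjusted p under 0.05, 4 of the 8 were lower, against 16.3% of all tested genes in either direction. The highest knockdown library was below the lowest control library for 4 of the 8, namely Mmp3, Mmp12, Mmp14 and Mmp15, against 22.0% of all tested genes. Without knockdown 0 h library 2 these 4 genes were called, with the same log2 fold changes, and in that fit 19.0% of all 14227 tested genes were called (1701 lower and 998 higher). The median log2 fold change was -0.80 over the 8 genes and -0.09 over all tested genes.

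**Figure D2:**
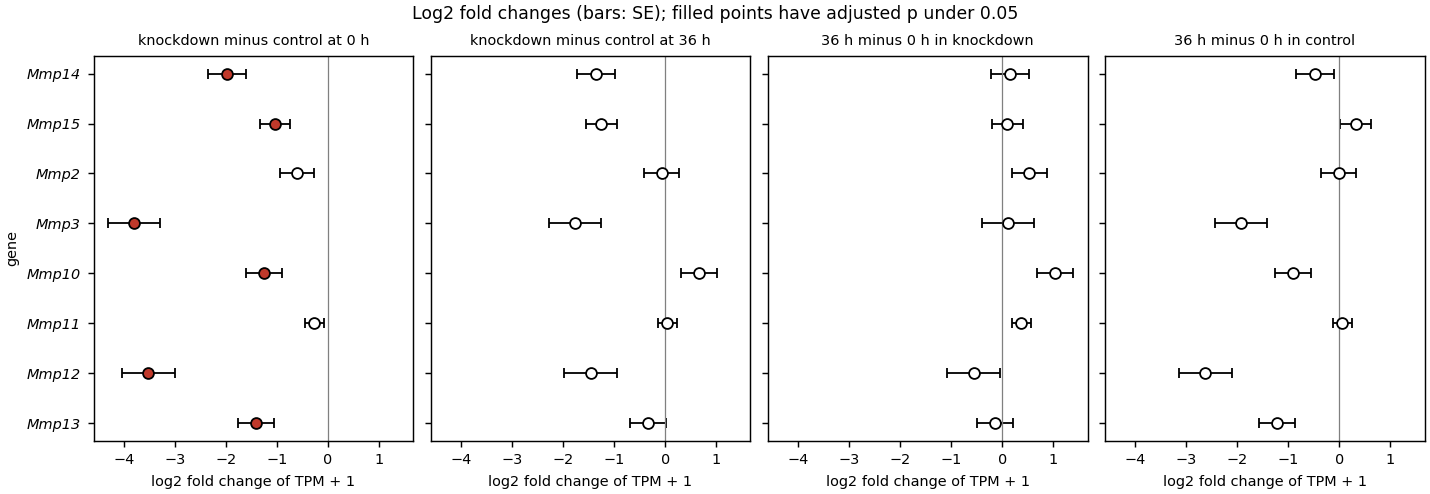
Log2 fold change of TPM + 1 (points, with bars for the SE) of the 8 tested genes in 4 comparisons. The left pair of panels sets knockdown against control at 0 h and 36 h, and the right pair sets 36 h against 0 h within knockdown and within control. Filled points have an adjusted p under 0.05. They are the 6 genes that fell at 0 h, and no gene is filled in the other 3 panels.

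In a further comparison each kind of cell at 36 h was set against its own 0 h libraries. In the knockdown none of the 8 tested genes passed in limma (1.12% of all tested genes did), and 1, Mmp10, was higher at an unadjusted p under 0.05, against 16.4% of all tested genes in either direction. In control none passed either (0.36% of all tested genes did), and 4 were lower at an unadjusted p under 0.05, against 5.57% of all tested genes in either direction. In control, all 3 libraries at 36 h lay below all 3 at 0 h for 5 of the 8, namely Mmp3, Mmp10, Mmp12, Mmp13 and Mmp14, against 12.3% of all tested genes. The median log2 fold change of the 8 was 0.13 in the knockdown and -0.69 in control, while all tested genes had a median of 0.33 in the knockdown and -0.01 in control.

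Mmp12 had the largest difference over time in control, where it averaged 11.7 ± 1.14 TPM at 36 h and 78.2 ± 19.8 TPM at 0 h, so that the 36 h mean was 14.9% of the 0 h mean. Its log2 fold change was -2.62 (SE 0.518), which did not pass (adjusted p = 0.0739), and it did in 7 of 24 alternatives, with median-of-ratios scaling (-2.60, adjusted p = 0.0164) and leaving out knockdown 0 h library 2 (adjusted p = 0.00171) or library 3 (adjusted p = 0.015) among them. In the knockdown Mmp12 averaged 3.77 ± 1.72 TPM at 36 h and 7.60 ± 6.52 TPM at 0 h, with a change of -0.56 (adjusted p = 0.487). The macrophage marker Cd68 fell over time in control, to 3.28 TPM at 36 h, against 12.9 TPM at 0 h (-1.68, adjusted p = 0.0142). In the knockdown Cd68 fell to 2.25 TPM at 36 h, against 8.16 TPM at 0 h (-1.46, adjusted p = 0.0158). With 1 library left out these calls held in 9 of 12 fits in the knockdown and in 7 of 12 in control, with adjusted p up to 0.086 (without knockdown 36 h library 1) and up to 0.0961 (without control 0 h library 1). Lyz2, another macrophage marker, averaged 0.723 TPM at 36 h and 0.97 TPM at 0 h in control. In the knockdown Lyz2 averaged 1.79 TPM at 36 h and 1.51 TPM at 0 h. The part of Cd68-expressing cells in the Mmp12 levels was not tested. Mmp3 in control averaged 7.27 ± 1.9 TPM at 36 h and 32.9 ± 18.1 TPM at 0 h, and the log2 fold change was -1.93 (SE 0.509, adjusted p = 0.252, and 0.0242 without knockdown 0 h library 2). In the knockdown Mmp3 averaged 1.47 ± 0.749 TPM at 36 h and 1.62 ± 1.66 TPM at 0 h, a change of 0.11 (adjusted p = 0.899).

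Mmp13 in control averaged 1.12 ± 0.346 TPM at 36 h and 3.98 ± 1.22 TPM at 0 h (-1.22, adjusted p = 0.340). The changes of Mmp10 had opposite signs in knockdown and control, and neither passed. It averaged 2.21 ± 0.761 TPM at 36 h and 0.653 ± 0.760 TPM at 0 h in the knockdown (1.03, SE 0.356, adjusted p = 0.222), and 1.08 ± 0.801 TPM at 36 h and 2.72 ± 0.444 TPM at 0 h in control (-0.90, SE 0.356, adjusted p = 0.717). The Mmp10 libraries of the 2 times overlapped in the knockdown and did not in control, and without knockdown 0 h library 3 the change in the knockdown was 1.38 (adjusted p = 0.0385).

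The difference between the change over time in the knockdown and that in control was tested as an interaction. No gene of the 14426 passed in limma (0.0%), and 5.31% had an unadjusted p under 0.05. Among the 8 metalloproteases, 3 had one, each with a positive difference. They were Mmp10 (1.92, SE 0.504), Mmp3 (2.04, SE 0.720) and Mmp12 (2.05, SE 0.733), with a limma adjusted p = 0.595 for each. So the knockdown effects at 0 h and at 36 h were not shown to differ for any of the 8. The comparisons at 0 h, at 36 h and over time share libraries with each other, and their values are not independent.

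The order of the levels was led by Mmp14 in every group. In knockdown at 0 h, Mmp14, Mmp2 and Mmp11 had overlapping ranges at the top, followed by Mmp12 and then the other genes. In control at 0 h the order was Mmp14, Mmp12, Mmp2, Mmp11 and Mmp3, where the ranges of Mmp11 and Mmp3 overlapped, and then Mmp13, Mmp15 and Mmp10 with overlapping ranges, with Mmp19 and Mmp9 last. In knockdown at 36 h, Mmp14, Mmp2 and Mmp11 again had overlapping ranges at the top. In control at 36 h Mmp14 stood above Mmp2 and Mmp11, which overlapped, with Mmp12, Mmp3 and Mmp15 below them in that order without overlap between neighbours.

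The summed level of the 10 genes was 112.9 ± 45.9 TPM in knockdown and 357.9 ± 65.6 TPM in control at 0 h (SD, n = 3 each). At 36 h it was 127.6 ± 2.45 TPM in knockdown and 217.3 ± 34.6 TPM in control. The 4 genes of the chromosome 9 cluster, Mmp3, Mmp10, Mmp12 and Mmp13, made up 2.95% to 14.5% of that sum in knockdown libraries at 0 h, against 27.8% to 37.4% in control libraries. At 36 h they made up 4.38% to 8.96% in knockdown libraries and 9.2% to 10.1% in control libraries. The shares did not overlap at either time, and the control share at 36 h was within the range of the knockdown at 0 h.

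**Figure D3:**
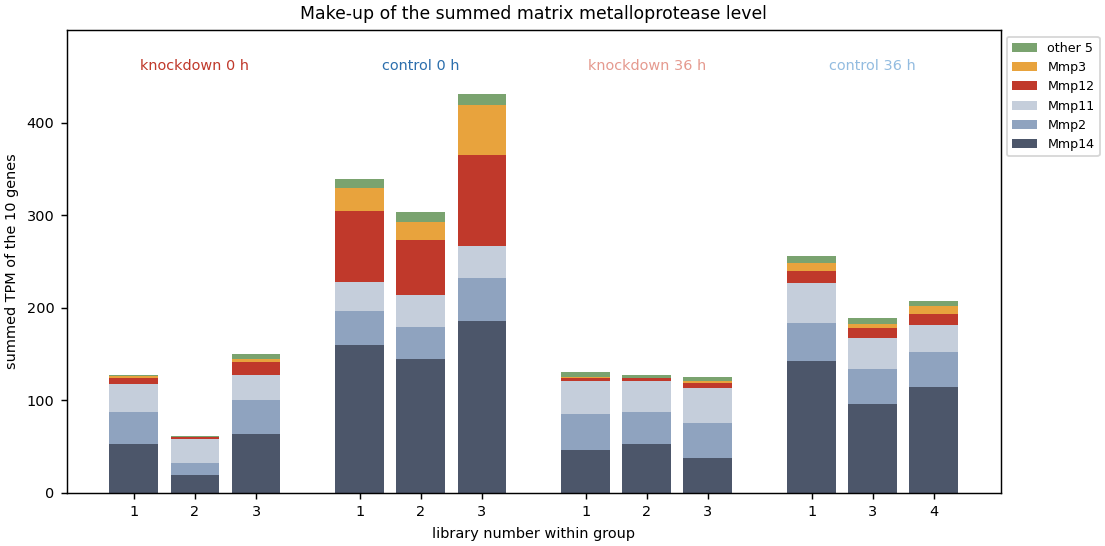
Summed TPM of the 10 genes in each library (stacked bars, linear axis from 0), split into Mmp14, Mmp2, Mmp11, Mmp12, Mmp3 and the other 5 genes together. Control libraries at 0 h are the tallest, and Mmp12 and Mmp3 together form a large part of the bar there and a small part in the other groups.

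Likeness between genes was measured as the root mean square difference of their log2(TPM + 1) values over the 12 libraries, after centring each gene on its own mean. Candidates had to average 5 TPM or more in their highest group. By this measure Mmp3 and Mmp12 were each other's nearest gene, with a difference of 0.435, where the values themselves vary around their means by 1.65 in Mmp3 and 1.67 in Mmp12. Next to Mmp3 came Padi4 (0.556) and Kcnn4 (0.6), and next to Mmp12 came Tnfaip2 (0.478) and Plet1 (0.652). Kcnn4, a calcium-activated potassium channel, averaged 13.0 ± 7.96 TPM in knockdown and 84.6 ± 7.20 TPM in control at 0 h, and 13.9 ± 3.23 TPM in knockdown and 35.4 ± 9.32 TPM in control at 36 h.

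Mmp14 was nearest to Lad1 (0.171), Etv5 (0.175) and Trpv4 (0.179). Etv5, an Ets family transcription factor, averaged 25.9 ± 15.3 TPM in knockdown and 85.0 ± 2.14 TPM in control at 0 h, and 24.3 ± 3.40 TPM in knockdown and 53.9 ± 15.0 TPM in control at 36 h. Mmp13 was nearest to Tnfrsf1b (0.255), Wnt7b (0.273) and Slfn2 (0.29). Mmp15 was nearest to C77080 (0.175), the growth factor receptor Fgfr1 (0.181) and Arhgap35 (0.195). Mmp10 was nearest to Rfx8 (0.359), Arhgdig (0.366) and Nherf2 (0.373), Mmp2 to Nt5c3b (0.0803), Nup88 (0.0856) and Wdr74 (0.0872), and Mmp11 to Plpp5 (0.126), Alg9 (0.136) and Dalrd3 (0.137). All these values rest on the same 12 libraries, knockdown 0 h library 2 included.

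Among the 13 other genes of the family only Mmp28, epilysin, reached the level for testing. It averaged 1.64 ± 0.774 TPM in knockdown and 3.82 ± 1.03 TPM in control at 0 h and fell (-0.90, SE 0.269, adjusted p = 0.0420). That call held in 2 of the 12 fits with 1 library left out, and the highest adjusted p was 0.151, without control 0 h library 1. At 36 h it averaged 3.04 ± 0.703 TPM in knockdown and 3.53 ± 0.413 TPM in control and did not pass. Mmp23, at 0.0333 ± 0.0306 TPM in knockdown and 0.287 ± 0.0961 TPM in control at 0 h, and at 0.0167 ± 0.0289 TPM in knockdown and 0.420 ± 0.149 TPM in control at 36 h, was too low to test. Mmp7 and Mmp20 were listed at 0 in every library.

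Of the inhibitors, 4 of 7 were tested, and 1 fell and none rose at 0 h, against 14.6% lower and 3.1% higher among all tested genes. The inhibitor that fell was Timp3, bound to the extracellular matrix, which averaged 160 ± 50.2 TPM in knockdown and 483 ± 66.5 TPM in control (-1.63, SE 0.258, adjusted p = 0.00345). Timp2, at 1430 ± 627 TPM in knockdown and 1650 ± 80.7 TPM in control (-0.33), Timp1, at 188 ± 24.6 TPM in knockdown and 141 ± 3.22 TPM in control (0.40), and the membrane-anchored inhibitor Reck, at 1.97 ± 0.653 TPM in knockdown and 0.930 ± 0.0608 TPM in control (0.60), did not pass. At 36 h none of the 4 passed (limma), and Timp3 averaged 282 ± 38.4 TPM in knockdown and 459 ± 109 TPM in control (-0.68, adjusted p = 0.206). The median log2 fold change of the inhibitors was 0.04 at 0 h, and 0.55 with median-of-ratios scaling, where 1 of them was also called higher. Over time Timp1 fell in the knockdown, to 99.6 ± 10.9 TPM at 36 h, against 188 ± 24.6 TPM at 0 h (-0.91, adjusted p = 0.0312), a call that held in 2 of 12 fits with 1 library left out and not with median-of-ratios scaling (-1.31, adjusted p = 0.0567). Its highest adjusted p was 0.185, without knockdown 36 h library 2.

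The activators and docking partners had a median of -1.15 at 0 h, against -0.41 for all tested genes. None of the 12 tested rose and 6 fell, against 14.6% of all tested genes lower. They include Itgb3, the integrin subunit that pairs with Itgav (-2.74), Pcsk6, a proprotein convertase (-1.91), Plau, the urokinase that generates plasmin (-1.69), and Cd44, a hyaluronan receptor that can hold metalloproteases at the cell surface (-1.05). The call of Cd44 did not hold with median-of-ratios scaling (-0.54, adjusted p = 0.0679) or without control 0 h library 1 (adjusted p = 0.0521). At 36 h 2 of 12 fell, against 1.64% of all tested genes, namely Itgb3 (-2.24, adjusted p = 0.0246) and Pcsk6 (-1.90, adjusted p = 0.0260). Itgb3 averaged 1.66 ± 0.526 TPM in knockdown and 12.3 ± 5.40 TPM in control at that time. With 1 library left out the calls at 36 h held in 7 of 12 fits for Itgb3 and in 5 of 12 for Pcsk6. Over time Lcn2, lipocalin 2, which can bind Mmp9, fell in both kinds of cell. In the knockdown it averaged 48.4 ± 13.6 TPM at 36 h and 150 ± 11.3 TPM at 0 h (-1.64, adjusted p = 0.00572), a call kept in 12 of 12 fits with 1 library left out. In control it averaged 42.2 ± 7.83 TPM at 36 h and 112 ± 8.16 TPM at 0 h (-1.40, adjusted p = 0.0231), a call kept in 6 of 12 and lost with median-of-ratios scaling (adjusted p = 0.0713). That call ended on leaving out any 1 of the 6 control libraries, with adjusted p between 0.0865 and 0.148.

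The related ADAM and ADAMTS proteases had a median of -1.06 at 0 h, against -0.41 for all tested genes. Of 8 tested, 4 fell, against 14.6% of all tested genes, and none rose. Adamts1, a secreted protease that cuts proteoglycans, averaged 25.5 ± 19.9 TPM in knockdown and 144 ± 20.4 TPM in control (-2.69, adjusted p = 0.00817), and the others were Adam8 (-1.39), Adam15 (-1.17) and Adamts4 (-1.13). At 36 h none of the 8 passed in limma. Over time in the knockdown Adam8 rose (1.62, adjusted p = 0.0096), a call that held in 9 of 12 fits with 1 library left out and ended without knockdown 36 h library 1 (adjusted p = 0.0557), 2 (0.0571) or 3 (0.0634).

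Transcription factors of the AP-1 and Ets families include known regulators of metalloprotease promoters. Of 13 tested, 10 fell at 0 h, against 14.6% of all tested genes, and none rose. Their median was -1.47, against -0.41 for all tested genes. Fos averaged 11.6 ± 4.86 TPM in knockdown and 62.9 ± 8.70 TPM in control (-2.42, SE 0.338, adjusted p = 0.00213). Jun averaged 17.3 ± 8.72 TPM in knockdown and 90.4 ± 20.0 TPM in control (-2.42, SE 0.386, adjusted p = 0.00350). Ets2 (-1.52) and Elf3 (-1.53) fell as well. With median-of-ratios scaling the calls of Elk3 (-0.30, limma adjusted p = 0.454) and Etv4 (-0.50, limma adjusted p = 0.131) were lost. Those of the other called factors were kept. Junb (-0.90, adjusted p = 0.105), Fosl1 (-0.42, adjusted p = 0.308) and Fosl2 (-0.22, adjusted p = 0.486) did not pass.

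At 36 h 1 of the 13 factors fell, against 1.64% of all tested genes, and the median was -1.06, against -0.09 for all tested genes. The factor that fell was Fosl2, at 3.50 ± 0.101 TPM in knockdown and 9.06 ± 2.17 TPM in control (-1.14, SE 0.234, adjusted p = 0.0334). The call of Fosl2 held in 5 of 12 fits with 1 library left out. It was lost with median-of-ratios scaling (-1.03, limma adjusted p = 0.0938). Without knockdown 0 h library 2 the count at 36 h was 11 of 13, in a fit that called 19.0% of all tested genes. Without control 0 h library 1 the count at 0 h was 4 of 13, without control 0 h library 3 it was 5, and without control 0 h library 2 it was 6. Over all tested genes, 755 were called at 0 h without control 0 h library 1, against 2550 with every library. Fos and Jun RNA levels say nothing of the activity of the AP-1 proteins.

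Of 17 tested substrates, 7 fell at 0 h, against 14.6% of all tested genes, and none rose. Their median was -1.31, against -0.41 for all tested genes. Fn1, fibronectin, averaged 33.6 ± 5.74 TPM in knockdown and 122 ± 21.4 TPM in control (-1.83), and Sparc, a matricellular protein, 191 ± 80.8 TPM in knockdown and 442 ± 13.4 TPM in control (-1.31). Igfbp3, which binds insulin-like growth factors, averaged 186 ± 85.9 TPM in knockdown and 449 ± 19.8 TPM in control (-1.40), and the hemidesmosomal collagen Col17a1 79.2 ± 40.7 TPM in knockdown and 225 ± 5.70 TPM in control (-1.62). With median-of-ratios scaling the 0 h calls of Spp1 (-1.02, limma adjusted p = 0.103) and Col1a1 (-0.64, limma adjusted p = 0.09) were lost. That of Col17a1 ended without any 1 of the 3 control 0 h libraries (limma adjusted p of 0.0638 to 0.067). That of Igfbp3 ended without control 0 h library 1 (0.0548) or 3 (0.054). At 36 h 3 of the 17 fell, against 1.64% of all tested genes, namely Fn1 (-1.94), Sparc (-1.17) and Col3a1 (-0.99). With 1 library left out these calls held in 7 of 12 fits for Fn1 and in 3 of 12 for Sparc and Col3a1 each. The call of Col3a1 was lost with median-of-ratios scaling (-0.91, limma adjusted p = 0.113). Over time Igfbp3 rose in the knockdown, to 756 ± 101 TPM at 36 h, against 186 ± 85.9 TPM at 0 h (2.14, adjusted p = 0.00887), a call that ended without knockdown 36 h library 2 (adjusted p = 0.0505) or 3 (0.0517). Leaving out 1 library at a time gave 2 to 11 substrates, 3 to 8 ADAM and ADAMTS genes and 4 to 8 activators lower at 0 h. In these fits 755 to 5869 of all tested genes were called at 0 h in either direction.

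**Figure D4:**
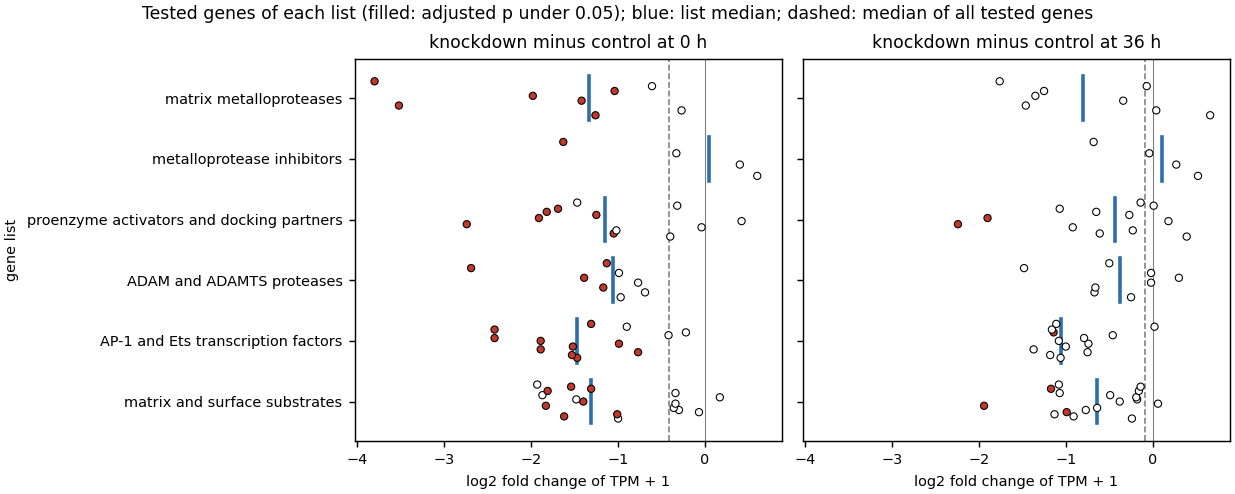
Log2 fold change of TPM + 1 (points) of each tested gene on 6 lists, knockdown minus control, at 0 h (left) and 36 h (right). Filled points have an adjusted p under 0.05, blue lines mark each list's median and the dashed line the median of all tested genes (-0.41 at 0 h, -0.09 at 36 h). At 0 h the median of every list except the inhibitors (0.04) lies below the dashed line.

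**Figure D5:**
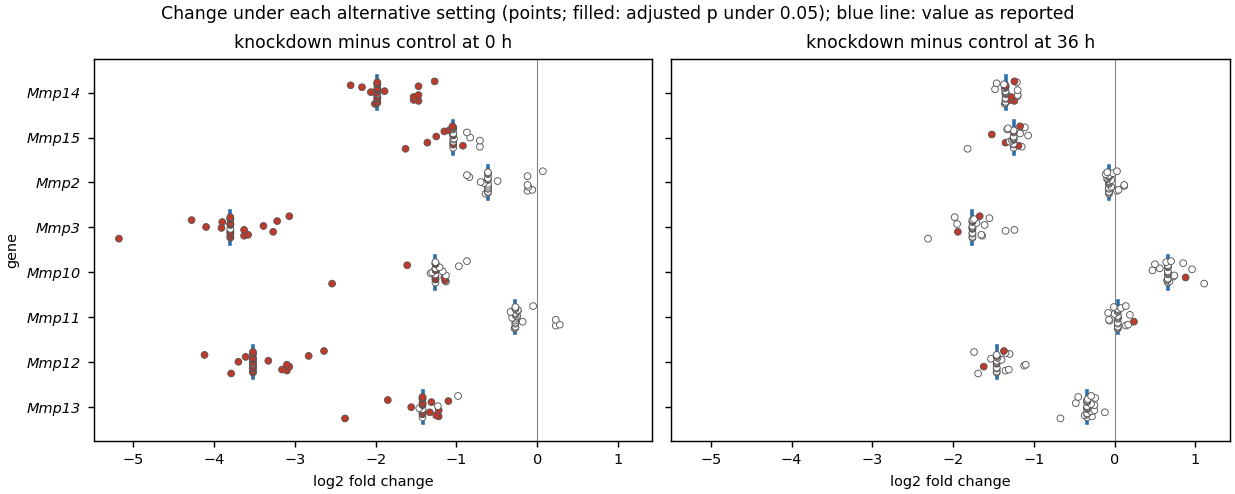
Log2 fold change of the 8 tested genes, knockdown minus control, under each alternative setting (points, filled where the adjusted p is under 0.05), with the reported value as a blue line. At 0 h Mmp3, Mmp12 and Mmp14 stay below 0 and are called in 23 of 24 alternatives, the exception being the fit of only the groups compared. At 36 h Mmp14, Mmp15, Mmp3 and Mmp12 also stay below 0, and each is called in some alternatives and not in others.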

How the data were processed

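The deposited table gives TPM per gene and library, made by the authors. Tools named in the submitters' processing notes are HISAT2 2.2.1, cutadapt 1.9.1, FastQC, DESeq2 and HTSeq, with the build GRCm39, and which of them made the TPM is not given. The labels' protocols name a stranded mRNA library kit, and how strand was used in counting is not given in the sources used here. Authors' group means were used only to see which libraries they average (within 1e-04 TPM): the control 36 h mean holds libraries 1 and 3 only. The table's gene length in bases, given by the authors, was not used in any test. Other deposited measures were not analysed here.

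Genes that reached 1 TPM in 3 or more of 12 libraries were fitted as log2(TPM + 1) with limma 3.58.1 under R 4.3.3, giving each group its own mean and letting the variance prior follow a trend, and the procedure was tested on simulated data. That simulation drew independent normal noise with the same spread for a gene in every library. It held no outlying library and no shift of most genes, so it does not test the procedure under these. Groups came from the sample titles. There were 5 comparisons: knockdown against control at each time, 36 h against 0 h in each kind of cell, and the difference of those changes. No 2 libraries shared more than 2.02% of tested values exactly, and none was dropped or imputed. The labels do not say whether replicate numbers pair the libraries, and the reported fit used no pairing (see the closing section). The metalloproteases, gene lists, tests and alternatives were chosen with earlier results of these data known. Named genes were the 10 metalloproteases, Snai1, the called genes of each list with the smallest adjusted p (at most 4), and the 3 genes most like each tested protease (predicted genes left out). Junb, Fosl1, Fosl2 at 0 h, Etv4, Elk3, Timp1, Timp2 and Reck were named as list members after their values were seen. So were Mmp23, Mmp28, Mmp7, Mmp20, Spp1, Col1a1 and the markers. Motifs were searched with Python 3.11.15 in RefSeq windows (GRCm38.p6), and shared stretches of 50 bases in GENCODE M21 transcripts. Alternatives were median-of-ratios scaling, quantile normalization, array weights, a robust fit, no variance trend, a pseudocount of 0.1, a filter of 5 TPM or none, only the groups compared, a block for the replicate number (with and without scaling), each library left out, and knockdown 0 h library 2 left out with scaling.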

Additional observations from a re-analysis of the deposited data

How the results depend on the processing

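Of the 8 tested metalloproteases, Mmp3, Mmp12 and Mmp14 kept their 0 h calls in 23 of 24 alternatives, and the exception was the fit of only the groups compared (adjusted p 0.0646 for Mmp3, 0.0694 for Mmp12 and 0.0994 for Mmp14), in which the spread comes from 6 libraries. In such fits their SEs were 0.61, 0.632 and 0.461 at 0 h, and 0.288, 0.261 and 0.184 at 36 h. The reported fit, which shares 1 spread among the groups, gave 0.509, 0.518 and 0.371 at both times. For these 3 genes the shared SE was thus below that of the 0 h groups and above that of the 36 h groups. The 6 metalloproteases called at 0 h became 3 of 10 tested with no filter, 3 of 5 tested with a filter of 5 TPM (which drops Mmp10, Mmp13 and Mmp15), 0 with only the groups compared, and 3 to 6 when 1 library was left out, with 3 without control 0 h library 1. With median-of-ratios scaling alone, the 0 h calls of Mmp10 and Mmp15 were lost. At 36 h the count of 0 became 1 with scaling (median-of-ratios), 2 with quantile normalization, 6 with array weights (4 lower, and Mmp10 and Mmp11 higher), 4 with only the groups compared, 4 with knockdown 0 h library 2 left out and scaling, and 0 to 4 when 1 library was left out. Over time in control the count of 0 became 1 with scaling, 1 with quantile normalization, 5 with array weights, 1 with only the groups compared, 2 with library 2 left out and scaling, and 0 to 2 with 1 library left out. In the knockdown over time it was 0 to 1 with 1 library left out. For the interaction it became 1, Mmp10, with array weights and was 0 in every fit with 1 library left out. The array weights stopped before they converged, and the cause of the other differences was not tested.

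All genes called at 0 h numbered 2550, and became 1258 with no filter, 4684 with array weights, 16 with only the groups compared, and 755 to 5869 with 1 library left out (fewest without control 0 h library 1, most without knockdown 0 h library 3). The split at 0 h with median-of-ratios scaling was 1469 lower and 1249 higher, against 2103 lower and 447 higher. At 36 h 365 became 192 with no filter, 857 with scaling, 933 with quantile normalization, 7678 with array weights, 2176 with only the groups compared, 2754 with library 2 left out and scaling, and 24 to 2699 with 1 library left out. In control over time 52 became 88 with scaling, 111 with quantile normalization, 4890 with array weights, 247 with only the groups compared, 395 with library 2 left out and scaling, and 18 to 401 with 1 library left out. In the knockdown over time 162 became 664 with array weights, 18 with only the groups compared, 409 with library 2 left out and scaling, and 46 to 1572 with 1 library left out. For the interaction 0 became 1 with no filter, 1 with scaling, 1 with quantile normalization, 90 with array weights, 5 with library 2 left out and scaling, and 0 to 10 with 1 library left out. The interaction has no separate fit of only the groups compared.

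Same-numbered libraries deviated from their group means with correlations of -0.287 to 0.132. The labels state no pairing, and without the same values for differently numbered libraries these correlations cannot decide whether the numbers pair them. With the replicate block, which leaves control 36 h library 4 alone in its level, 1011 genes in all were called at 0 h and 5 at 36 h, while 40 were called over time in the knockdown, 6 over time in control and 1 for the interaction. With the replicate block and scaling the numbers were 1394 at 0 h and 33 at 36 h, with 51 over time in the knockdown and 4 in control. At 0 h 5 metalloproteases were called with the block and 4 with the block and scaling.

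Over the single-gene log2 fold changes of the metalloproteases, 45 of the alternatives' values changed sign, 31 lost a call, 38 gained one and 823 did neither. The sign changes were all in values that were not called. For Mmp2 they were 0.07 at 0 h with library 2 left out and scaling, at 36 h 0.03 with scaling, 0.05 with quantile normalization, 0.12 with the block, 0.12 with the block and scaling and 0.03 with library 2 left out and scaling, over time in control 0.04 with quantile normalization, 0.02 with array weights and -0.10 to 0.11 with 1 library left out, and with library 2 left out and scaling -0.05 over time in the knockdown and -0.04 for the interaction. For Mmp3 over time in the knockdown they were -0.31 with array weights, -0.52 with library 2 left out and scaling, and -0.47 to 0.58 with 1 library left out. For Mmp11 they were 0.23 at 0 h with scaling, 0.28 with quantile normalization and 0.23 with the block and scaling, at 36 h -0.06 with the block, -0.07 with the block and scaling and -0.08 to 0.19 with 1 library left out, over time in control -0.14 with array weights and -0.09 to 0.17 with 1 library left out, over time in the knockdown -0.02 with scaling, -0.03 with quantile normalization and -0.02 with the block and scaling, and for the interaction -0.09, -0.12 and -0.30 under these 3 settings. For Mmp12 and Mmp13 over time in the knockdown, leaving out 1 library gave -1.25 to 0.03 and -0.46 to 0.29. For Mmp14 over time in the knockdown they were -0.23 with scaling, -0.21 with quantile normalization, -0.20 with array weights, -0.23 with the block and scaling and -0.44 with library 2 left out and scaling, and -0.36 to 0.48 with 1 library left out. For Mmp15 they were -0.13, -0.07 and -0.13 over time in the knockdown with scaling, quantile normalization and the block with scaling and -0.06 to 0.24 with 1 library left out, and 0.01 for the interaction with array weights.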
